A study of Sus scrofa with 4 samples.

Results

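Transforming growth factor beta (TGF-β) ligands, latent-complex binders and receptors were examined by sequencing the RNA of individual meniscus cells from pigs (Sus scrofa); the meniscus is a fibrocartilage ring sector that cushions the knee. The set holds 10 of the 21280 genes in the count tables, chosen by symbol: the ligand genes TGFB1, TGFB2, TGFB3 and INHBA, the binder genes LTBP1 and LTBP2, the receptor genes TGFBR1, TGFBR2 and TGFBR3, and TGFBI, a matrix protein named for its induction by TGF-β. The rule reads symbols and no measured value, and all 10 genes were detected in every library. The symbols were, however, chosen with earlier results of these data known. Shares of members called, set beside those of all genes below, are thus descriptive and no test of the set. The study cut medial and lateral menisci into a white zone, in textbook anatomy the inner part without vessels, and a red zone, the outer part with vessels, and made 1 library of digested cells from each combination. The 4 libraries are called medial white, lateral white, medial red and lateral red, so each zone and each meniscus has 2 libraries. The labels name no treatment, genotype or disease, and breed, age and number of animals are not given in the sources used here. The p-values below therefore reflect no more than the spread between these 4 libraries, which may be technical. The fits share variance over all genes, so a gene's own spread between 2 libraries a zone enters them only in part.

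TGF-β ligands are secreted in a latent form, in which the mature dimer stays wrapped in its own propeptide. Latent binding proteins tie this complex to fibrillin microfibrils of the matrix, from which integrins, thrombospondin or proteases release the active dimer. The active dimer binds the type II receptor, which recruits and phosphorylates the type I receptor, and SMAD2 and SMAD3 carry the signal to the nucleus. In fibrocartilage the pathway is best known for driving collagen and proteoglycan synthesis.

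In the RefSeq annotation of Sscrofa11.1, the build the counts were made on, the ligand genes lie as TGFB1 (ENSSSCG00000003017) on chromosome 6 from 49332169 to 49348642, TGFB2 (ENSSSCG00000010816) on chromosome 10 from 8306136 to 8435307 and TGFB3 (ENSSSCG00000002385) on chromosome 7 from 99133873 to 99162239. The binder genes lie as LTBP1 (ENSSSCG00000008510) on chromosome 3 from 106300748 to 106724538 and LTBP2 (ENSSSCG00000002368) on chromosome 7 from 97744974 to 97852848. The receptor genes lie as TGFBR1 (ENSSSCG00000005382) on chromosome 1 from 240842735 to 240918267, TGFBR2 (ENSSSCG00000011226) on chromosome 13 from 16784370 to 16875828 and TGFBR3 (ENSSSCG00000006911) on chromosome 4 from 125109939 to 125310788. The last is TGFBI (ENSSSCG00000014316) on chromosome 2 from 138191793 to 138225373. INHBA was counted under ENSSSCG00000035077. The assay tags the 3′ end of transcripts with unique molecular identifiers (UMIs), and levels are given in CPM, the UMIs of a gene scaled to a common total of UMIs over the same cells (counts per 1e6). Levels are compared between samples for 1 gene at a time and never between genes.

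After filtering, 7807 medial white, 7382 lateral white, 6803 medial red and 5573 lateral red cells were kept, with 9246399 to 14902274 UMIs a library and medians of 1454 to 1617 UMIs a cell. Cells were grouped by counts of marker genes that include no member of the set. Cartilage marker cells (COL2A1, ACAN and others) numbered 1995 in medial white, 3200 in lateral white, 54 in medial red and 94 in lateral red. Fibrochondrocyte marker cells (COMP, CILP and others) numbered 4597, 3061, 305 and 598 in the same order of libraries, and fibroblast marker cells (PDGFRA, LUM, PI16 and others) 492, 404, 3298 and 1947. Mural marker cells, the smooth muscle cells and pericytes of vessel walls, numbered 300, 270, 877 and 808, endothelial marker cells 268, 167, 906 and 808, and myeloid marker cells 57, 77, 650 and 547. The mural group goes against its name in the white zone: its summed cartilage markers stood at 15123 CPM in medial white and 13351 CPM in lateral white cells, against 117 CPM in medial red and 137 CPM in lateral red cells. Its mural markers outnumbered its cartilage markers in 120 of 300 medial white and 109 of 270 lateral white cells, against 871 of 877 medial red and 800 of 808 lateral red cells. Mural values between zones are therefore also given for those cells alone. White endothelial cells carried 2012 and 3321 CPM and white myeloid cells 2053 and 1624 CPM of cartilage markers in the medial and the lateral library, while their red counterparts stayed at or below 138 CPM. White fibroblast marker cells differed from red ones too. Their fibroblast markers summed to 5311 and 4234 CPM in medial and lateral white, against 11668 and 10132 CPM in medial and lateral red cells. Fibrochondrocyte markers there stood at 10388 and 6838 against 3354 and 5874 CPM in that order. Cartilage markers stood at 2456 and 2300 against 495 and 722 CPM. Zone values of this group thus compare cells of unlike marker content, and the part of this was not tested. The same holds for fibrochondrocyte marker cells. Their cartilage markers stood at 4353 and 3875 CPM in medial and lateral white, against 2210 and 1873 CPM in medial and lateral red cells. Of the mural, endothelial and myeloid marker cells, 21.6%, 22.3% and 6.31% had just 3 or 4 marker UMIs, close to the limit of 3.

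The first comparison asked how the pathway's genes differ between the white and the red zone over all cells. White cells had higher TGFBR1, LTBP2, TGFBR3, LTBP1, INHBA and TGFB2 and lower TGFB3 than red cells. LTBP2 and TGFBR1 differed most, at log2 fold changes of 2.39 and 2.26. In the edgeR quasi-likelihood test, the white zone had 6 members called higher and 1 called lower at a Benjamini-Hochberg adjusted p below 0.05 over 12461 genes. Of all those genes 40.8% were called, so a call alone is common here. The members' median log2 fold change was 0.82, against -0.0048 for all tested genes. Fewer cells of a type and less RNA per cell cannot be told apart in such sums.

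Among the ligands, TGFB3 was the one with the lower white level. It had 50.2 CPM in medial white and 33.9 CPM in lateral white cells, against 113 CPM in medial red and 97.8 CPM in lateral red cells. Both white libraries lay below both red ones, and its log2 fold change, white over red, was -0.85 ± 0.17 (SE), adjusted p = 0.00406 (edgeR). The white minus red difference was -0.71 in the medial and -0.996 in the lateral meniscus on the TMM-scaled log2 scale. Without the medial red library it was -0.76 and not called. INHBA, which encodes the βA chain of activin A and inhibin A, had 79.2 CPM in medial white and 235 CPM in lateral white cells, against 76.0 CPM in medial red and 94.1 CPM in lateral red cells. The lateral white library stood apart from the other three, so that the fold change of 1.19 ± 0.29 (SE), adjusted p = 0.0102 (edgeR), rests mostly on it. Without the lateral white library the INHBA value was 0.34 and no longer called, and it also lost its call without the lateral red (1.59) or the medial red library (1.24). TGFB2, a ligand widely made by mesenchymal cells, had 182 CPM in medial white and 178 CPM in lateral white cells, against 188 CPM in medial red and 158 CPM in lateral red cells. Its CPM ranges overlapped between zones, and its fold change of 0.55 ± 0.19 (SE), adjusted p = 0.0425 (edgeR), rests on the TMM scaling: with library totals alone it was 0.06. The TGFB2 call was also lost in DESeq2, after removing the highest Scrublet (doublet) scores (0.55) and without the lateral white (0.52), lateral red (0.45) or medial red library (0.66). TGFB1, the ligand most tied to immune control, had 95.4 CPM in medial white and 70.1 CPM in lateral white cells, against 80.7 CPM in medial red and 88.6 CPM in lateral red cells. Those values overlap too, and TGFB1 was not called (0.44 ± 0.19 (SE), adjusted p = 0.0862, edgeR). Without the lateral white library it was 0.61 and called (adjusted p = 0.0205, edgeR).

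Both latent binding protein genes were higher in the white zone. LTBP1, which anchors latent TGF-β to the matrix, had 197 CPM in medial white and 183 CPM in lateral white cells, against 141 CPM in medial red and 114 CPM in lateral red cells. Its zones did not overlap, and its fold change was 1.08 ± 0.19 (SE), adjusted p = 0.00178 (edgeR). LTBP2, a microfibril protein of the same family that in human does not bind latent TGF-β, had 110.2 CPM in medial white and 78.8 CPM in lateral white cells, against 25.5 CPM in medial red and 24.6 CPM in lateral red cells. Each white library stood well above both red ones. Its fold change was 2.39 ± 0.19 (SE), adjusted p = 1.88e-05 (edgeR), with 2.56 in the medial and 2.21 in the lateral meniscus.

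The 3 receptors split. TGFBR1, the type I receptor kinase that phosphorylates SMADs, had 157 CPM in medial white and 124 CPM in lateral white cells, against 38.2 CPM in medial red and 43.9 CPM in lateral red cells. White and red libraries were far apart, with a fold change of 2.26 ± 0.20 (SE), adjusted p = 3.22e-05 (edgeR), and a difference of 2.49 in the medial and 2.03 in the lateral meniscus. TGFBR3, or betaglycan, the co-receptor that presents ligand and is required for high-affinity binding of TGF-β2, had 233 CPM in medial white and 214 CPM in lateral white cells, against 138 CPM in medial red and 128 CPM in lateral red cells. Its zones did not overlap either, and the fold change was 1.24 ± 0.19 (SE), adjusted p = 7.70e-04 (edgeR). TGFBR2, the ligand-binding type II receptor, had 287 CPM in medial white and 145 CPM in lateral white cells, against 203 CPM in medial red and 210.2 CPM in lateral red cells. Here the 2 white libraries lay on either side of the red ones. Its fold change of 0.48 ± 0.25 (SE), adjusted p = 0.154 (edgeR), was not called. Without the lateral white library it was 0.91 and called.

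TGFBI, the secreted matrix protein that binds collagens and integrins, had 498 CPM in medial white and 188 CPM in lateral white cells, against 399 CPM in medial red and 295 CPM in lateral red cells. The highest and the lowest value were both in the white zone, and the fold change of 0.33 ± 0.25 (SE), adjusted p = 0.336 (edgeR), was not called. White minus red was 0.77 in the medial and -0.12 in the lateral meniscus. Leaving out the lateral white library gave 0.96 with a call, and leaving out the medial white library gave -0.33 without one.

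**Figure D1:**
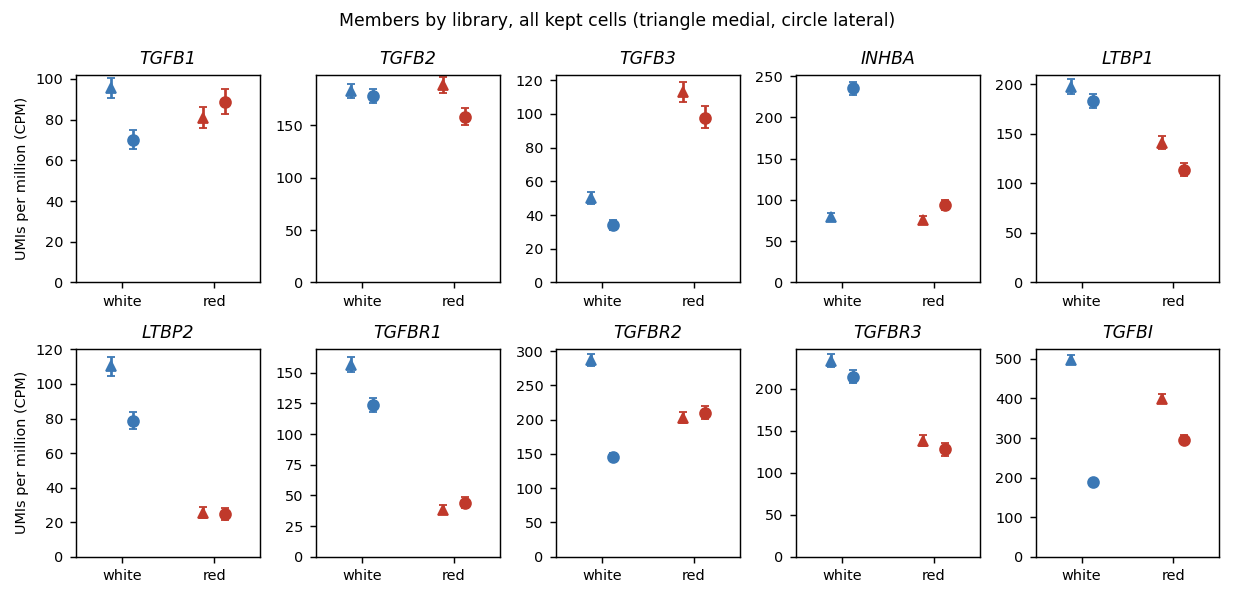
Level of each member (CPM, y axis) over all kept cells of each library, white zone left and red zone right, with triangles for medial and circles for lateral menisci; bars are 95% exact Poisson intervals, which cover counting error only. White and red points are apart for TGFB3, LTBP1, LTBP2, TGFBR1 and TGFBR3, while INHBA is high in the lateral white library alone.

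**Figure D2:**
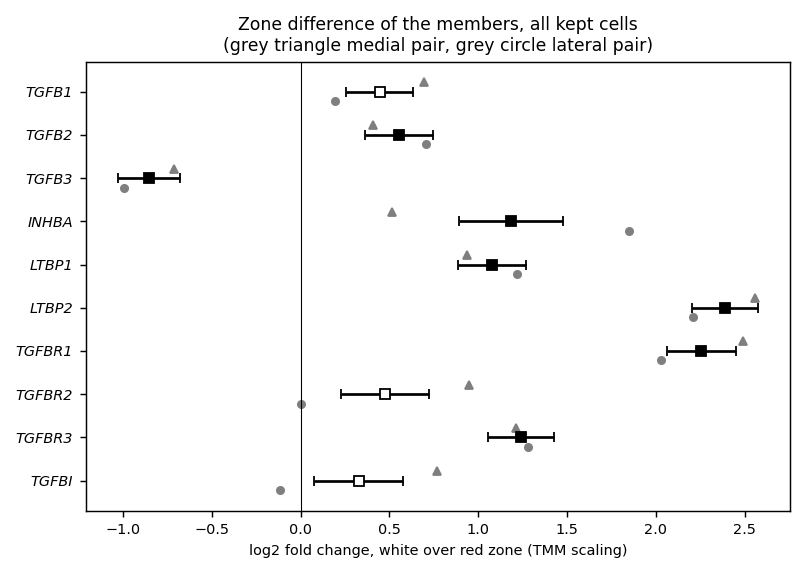
Log2 fold change of each member, white over red zone (x axis), over all kept cells; squares are the edgeR estimate with its standard error, filled where the adjusted p is below 0.05, and grey marks are the difference within the medial (triangle) and the lateral (circle) meniscus. LTBP2 at 2.39 and TGFBR1 at 2.26 lie farthest right and TGFB3 at -0.85 alone lies left with a call.

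The scaling matters for this comparison, because without TMM factors the median of all tested genes moved to -0.50 and the shares of genes called higher and called lower became 7.2% and 41.0%, against 18.3% and 22.5% with them. On that scale TGFB1, TGFBR2 and TGFBI stood at -0.05, -0.02 and -0.17, INHBA at 0.69 without a call, and LTBP1, LTBP2, TGFBR1, TGFBR3 and TGFB3 kept their direction and their call. With 2 libraries a zone, an exact two-sided permutation test of any single value cannot give a p below 0.333.

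The second comparison asked whether the medial and the lateral meniscus differ. Over all cells 0 of the 10 members were called by edgeR and 0 by DESeq2. EdgeR called 14 of 12461 genes (0.112%) and DESeq2 32, and 895 genes had an unadjusted edgeR p below 0.05. INHBA and TGFBI were the 2 members under that unadjusted limit. INHBA was at 79.2 CPM in medial white and 76.0 CPM in medial red cells, against 235 CPM in lateral white and 94.1 CPM in lateral red cells. Each medial value lay below its lateral partner, mostly in the white zone, with a log2 fold change, medial over lateral, of -1.03 ± 0.29 (SE), adjusted p = 0.401 (edgeR). TGFBI was at 498 CPM in medial white and 399 CPM in medial red cells, against 188 CPM in lateral white and 295 CPM in lateral red cells. Both medial values lay above both lateral ones, at 0.84 ± 0.25 (SE), adjusted p = 0.445 (edgeR). The other 8 members had log2 fold changes between -0.00 for TGFBR1 and 0.38 for TGFBR2. With no filter on low counts INHBA and TGFBI were both called.

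Across marker groups, matrix and vessel wall cells held most of the TGFB2, TGFB3, INHBA and LTBP1 signal, and matrix cells most of the LTBP2 signal. Myeloid cells stood out for TGFB1, and endothelial cells for TGFBR2. Each group was tested against the mean of the other groups with the library as a block. With T or NK cell and B or plasma cell sums in the model, which exist in the red zone alone, 38 of 60 tests of members were called, 30 higher and 8 lower. The share of all 10990 genes called in that fit was 19.8% for cartilage, 23.3% for fibrochondrocyte, 23.9% for fibroblast, 22% for mural, 25.2% for endothelial and 26.4% for myeloid marker cells. Since many members were near 0 in lymphocytes, the fold changes below come from a fit of the 6 groups present in every library, added after seeing the data, in which 42 of 60 were called, 25 higher and 17 lower. Levels are mean ± SD over the 4 libraries. Limiting the mural, endothelial and myeloid groups to cells with more own than cartilage markers, in the model with lymphocytes, added calls of lower TGFBI (-1.83) and lower TGFBR3 (-0.79) in mural marker cells.

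In the 6-group fit, cartilage marker cells had 5 members called higher and 0 lower, beside 26.2% of 9105 genes called in either direction. Fibrochondrocyte marker cells had 8 higher and 1 lower (background 25%), fibroblast marker cells 7 higher and 1 lower (21.5%) and mural marker cells 3 higher and 0 lower (22.6%). Endothelial marker cells had 1 higher and 8 lower (42.2%), and myeloid marker cells 1 higher and 7 lower (51.1%). With the lymphocyte sums in the model, 2 members were called lower in endothelial marker cells (TGFB3 and TGFBI) and 4 in myeloid marker cells (TGFB3, INHBA, LTBP1 and TGFBR3). The calls of lower TGFB2, INHBA, LTBP1, LTBP2, TGFBR1 and TGFBR3 in endothelial and of lower TGFB2, LTBP2 and TGFBR2 in myeloid marker cells were not made in that fit, where endothelial TGFBR1 had the other sign (0.32, against -1.20 with 6 groups).

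TGFB1 was highest in myeloid marker cells, at 248 ± 52.4 CPM, with 276 CPM in medial white, 171 CPM in lateral white, 258 CPM in medial red and 286 CPM in lateral red cells. These 4 values lay above all those of the other 5 groups, and the log2 fold change over the other groups was 1.69 ± 0.22 (SE), adjusted p = 5.77e-07 (edgeR). Endothelial marker cells followed at 129 ± 37.7 CPM, overlapping with mural marker cells at 97.1 ± 22.5 CPM. Fibroblast marker cells, at 50.01 ± 20.7 CPM, and fibrochondrocyte marker cells, at 47.2 ± 32.1 CPM, were called lower than the other groups, at -1.07 and -0.81. TGFB2 went the other way, at 291 ± 88.5 CPM in fibrochondrocyte, 247 ± 17.5 CPM in fibroblast and 168 ± 4.54 CPM in mural marker cells, against 31.1 ± 5.91 CPM in endothelial and 35.1 ± 10.6 CPM in myeloid marker cells. No endothelial or myeloid value reached the lowest of those 3 groups, and TGFB2 was called higher in fibrochondrocyte marker cells at 1.84 ± 0.19 (SE), adjusted p = 4.14e-07 (edgeR). In cartilage marker cells TGFB2 was less even, with 84.8 CPM in medial white and 137 CPM in lateral white cells, against 654 CPM in medial red and 236 CPM in lateral red cells.

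TGFB3 was highest in mural marker cells, at 134 ± 85.6 CPM, and its log2 fold change there was 1.51 ± 0.17 (SE), adjusted p = 2.43e-07 (edgeR). Within that group it had 75.0 CPM in medial white and 47.3 CPM in lateral white cells, against 224 CPM in medial red and 189 CPM in lateral red cells. The red libraries were the high ones. Fibroblast and fibrochondrocyte marker cells were also called higher, at 1.29 and 1.09, while endothelial cells were at 18.4 ± 6.89 CPM and myeloid cells at 20.6 ± 11.6 CPM. INHBA was at 209 ± 91.8 CPM in fibrochondrocyte marker cells and called higher there at 1.85 ± 0.23 (SE), adjusted p = 3.05e-06 (edgeR). It was also called higher in cartilage (1.27), mural (1.09) and fibroblast marker cells (0.77). In endothelial marker cells INHBA was at 114 CPM in lateral white cells from 29 UMIs, of which 6 (34.8 CPM) lay in the 145 of 167 cells with more endothelial than cartilage markers. It was at 5.92 to 21.5 CPM in the other libraries.

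The binder LTBP2 was highest in fibrochondrocyte marker cells, at 142 CPM in medial white, 115 CPM in lateral white, 33.1 CPM in medial red and 61.8 CPM in lateral red cells. The zones were apart within the group, and the fold change over the other groups was 2.01 ± 0.27 (SE), adjusted p = 8.76e-06 (edgeR). Fibroblast marker cells had 71.7 ± 36.7 CPM and a fold change of 1.497, also called. At least 1 LTBP2 UMI was seen in 20.8% of medial white, 15.2% of lateral white, 3.61% of medial red and 10.0% of lateral red fibrochondrocyte marker cells, with exact 95% intervals of 19.7% to 22.02%, 14.0% to 16.5%, 1.81% to 6.36% and 7.74% to 12.7%. The same share in myeloid marker cells, taken as a background, was 3.51%, 1.30%, 1.23% and 0.183% in that order, with intervals of 0.428% to 12.1%, 0.0329% to 7.02%, 0.533% to 2.41% and 0.00460% to 1.01%. Median UMIs a cell in those libraries were 1673, 1397, 1361 and 1626.5 for fibrochondrocyte and 1389, 1612, 1346 and 1429 for myeloid marker cells. With every cell thinned to 500 UMIs, the fibrochondrocyte shares were 6.40%, 5.46%, 1.31% and 3.51%, and no myeloid share exceeded 1.75%. LTBP1 was spread more evenly, from 206 ± 48.6 CPM in fibroblast to 108 ± 27.5 CPM in endothelial marker cells, and fell to 32.7 ± 20.1 CPM in myeloid marker cells (-2.69 ± 0.27 (SE), adjusted p = 6.54e-09, edgeR).

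Of the receptors, TGFBR2 was highest in endothelial marker cells, at 430.1 CPM in medial white, 310.1 CPM in lateral white, 231 CPM in medial red and 290.4 CPM in lateral red cells. In each library but the medial red one the endothelial value was above those of the other 5 groups, and the fold change was 0.39 ± 0.14 (SE), adjusted p = 0.0296 (edgeR). Its range over the 6 groups was narrow, down to 162 ± 51.8 CPM in cartilage marker cells. TGFBR1 was highest in cartilage marker cells at 121 ± 69.0 CPM, with a fold change of 1.07 ± 0.23 (SE), adjusted p = 0.00133 (edgeR). Its mean over libraries was lowest in myeloid marker cells at 48.0 ± 5.65 CPM and endothelial marker cells at 52.0 ± 31.6 CPM. The myeloid value was not called (-0.40, adjusted p = 0.205, edgeR). In medial and lateral red cells TGFBR1 was at 50.8 and 54.1 CPM in myeloid, against 42.8 and 45.5 CPM in fibroblast and 22.8 and 27.8 CPM in endothelial marker cells. TGFBR3 overlapped between cartilage, fibrochondrocyte and fibroblast marker cells, at 224 ± 38.2 CPM, 221 ± 29.7 CPM and 214 ± 67.7 CPM. It was called lower in endothelial marker cells (100.2 ± 17.2 CPM) and in myeloid marker cells (51.3 ± 25.2 CPM).

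TGFBI had its highest mean in fibroblast marker cells, at 431 ± 228 CPM, followed by fibrochondrocyte and cartilage marker cells at 353 ± 144 CPM and 353 ± 208 CPM, and the ranges of all 3 overlap. Myeloid marker cells had 273 ± 74.8 CPM and did not differ from the other groups with a call (0.03 ± 0.35 (SE), adjusted p = 0.964, edgeR). Endothelial marker cells were lowest, at 69.4 ± 22.2 CPM (-2.47 ± 0.42 (SE), adjusted p = 3.03e-05, edgeR).

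**Figure D3:**
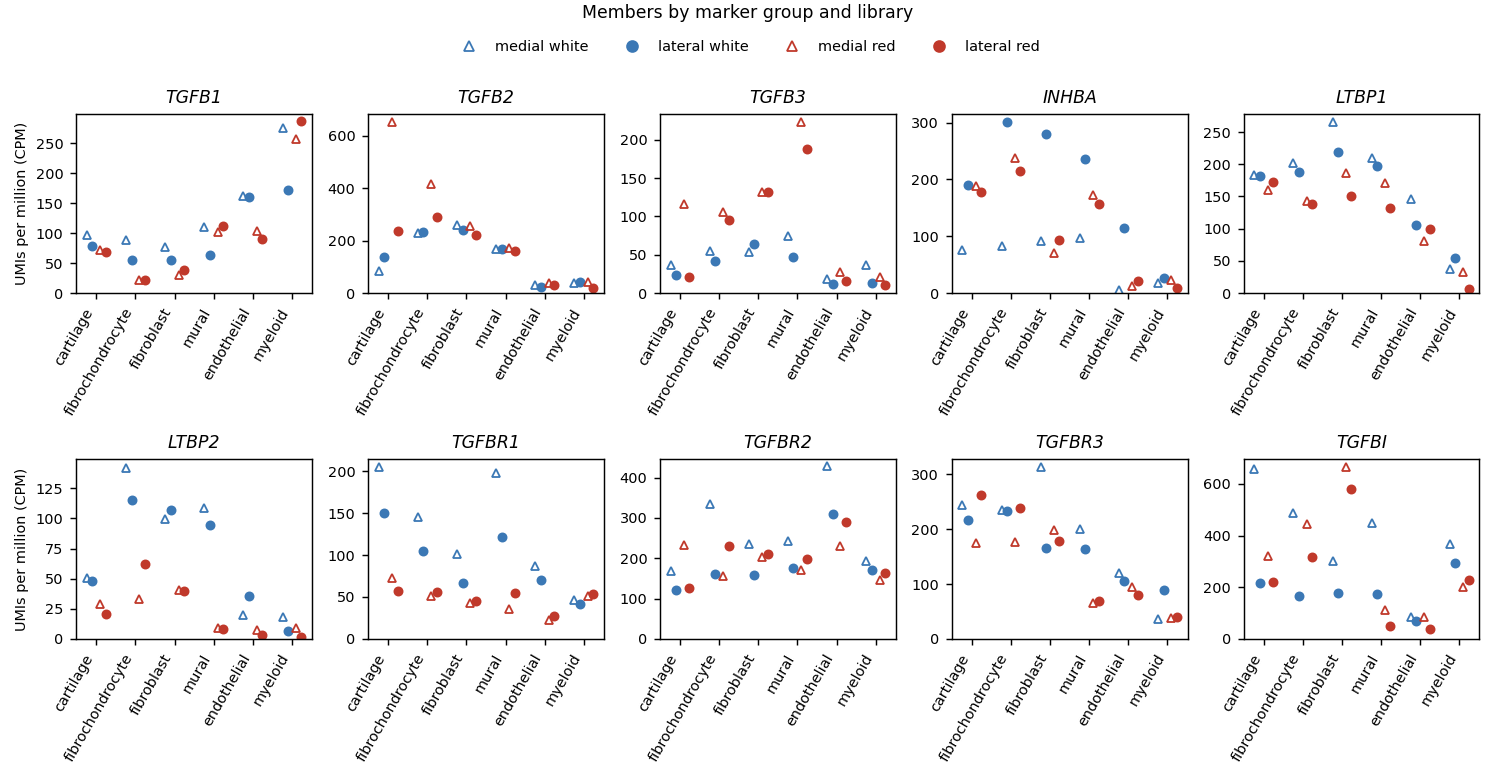
Level of each member (CPM, y axis) in the 6 marker groups (x axis), 1 point for each library: blue for white and red for red zone, open triangles for medial and filled circles for lateral menisci. TGFB1 peaks in myeloid, TGFB3 in red zone mural and TGFBR2 in endothelial marker cells, and blue points lie above red ones for LTBP2 and TGFBR1 in most groups.

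The UMIs of a gene came from different groups in the 2 zones. In the white zone, fibrochondrocyte and cartilage marker cells held 56.1% and 31.7% of the TGFBR1 UMIs of the medial library and 32.5% and 57.4% of those of the lateral library. In the red zone, fibroblast marker cells held 54.7% in the medial and 39.2% in the lateral library. For TGFB1, myeloid marker cells gave 2.11% of medial white and 2.60% of lateral white UMIs, against 27.1% of medial red and 28.4% of lateral red UMIs. Fibroblast marker cells gave 81.3% and 73.9% of the TGFBI UMIs of the medial and lateral red libraries.

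**Figure D4:**
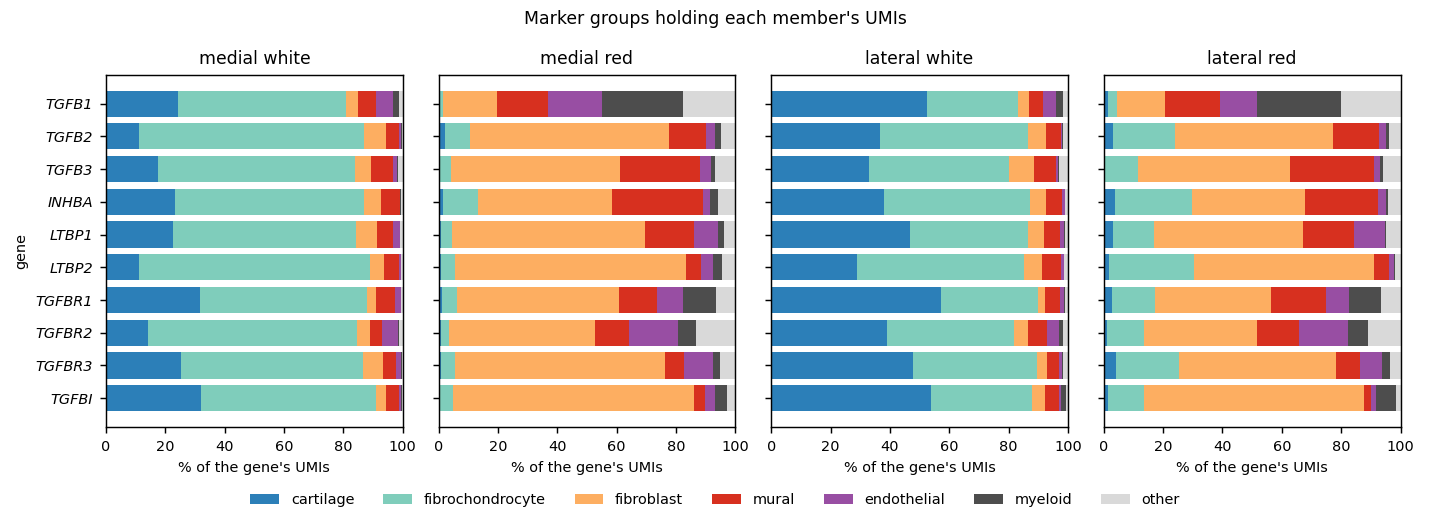
Share of each member's UMIs (% of the library's UMIs of that gene, x axis) held by each marker group, 1 panel for each library; other holds the lymphocyte, Schwann, mast, lymphatic, mixed and ungrouped cells. Cartilage and fibrochondrocyte marker cells fill most of each white zone bar and fibroblast marker cells hold the largest part of each red zone bar, except for TGFB1, where myeloid marker cells hold 27.1% and 28.4% of the medial and lateral red UMIs.

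The zones were then compared within each marker group, where the mix of cells weighs less. LTBP2 and TGFBR1 were again higher and TGFB3 lower in white cells of several groups. TGFB1 was higher in white fibrochondrocyte and fibroblast marker cells, and TGFBI lower in white fibroblast marker cells. Of 59 tests 20 were called, 15 with white above red and 5 with white below. The members called against the share of all genes called were 2 of 10 against 3.53% in cartilage, 4 of 10 against 9.13% in fibrochondrocyte, 5 of 10 against 9.16% in fibroblast, 7 of 10 against 35.4% in mural and 2 of 10 against 10.9% in endothelial marker cells. In myeloid marker cells 0 of 9 were called by edgeR, against 7.57% of genes. DESeq2 called 10 of the 59. In the edgeR fits of cartilage, mural and myeloid marker cells a gene's own spread between libraries did not enter the p-value. Mural INHBA had an SE of 0.225, though white minus red was -0.536 in the medial and 1.04 in the lateral meniscus. Very small p-values in these groups therefore do not measure the spread between libraries. Limiting the mural, endothelial and myeloid groups to cells with more own than cartilage markers gave 15 calls, and 6.91% of genes called in the mural group. Just 4 of the 15 lay in those groups, the rest being in matrix groups that the limit did not touch. Of the 4, mural TGFB3 and LTBP2 were kept and endothelial TGFB1 and TGFB3 were new. The other mural calls and the earlier endothelial calls were lost.

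TGFB1, not called over all cells, was called higher in white fibrochondrocyte and fibroblast marker cells. White cells of both groups also held more cartilage markers than red ones, and the part of this was not tested. In fibrochondrocyte marker cells TGFB1 had 89.0 CPM in medial white and 55.9 CPM in lateral white cells, against 22.1 CPM in medial red and 21.9 CPM in lateral red cells. Both white values were above both red ones, with a fold change of 1.78 ± 0.30 (SE), adjusted p = 2.17e-05 (edgeR), though the red values rest on 10 and 23 UMIs in the medial and lateral library. That call was lost without the lateral red (1.96) or medial red library (1.83). Fibroblast marker cells gave 1.16 ± 0.27 (SE), adjusted p = 0.0447 (edgeR), a call lost in DESeq2 and without the medial white (0.89) or medial red library (0.94). In myeloid marker cells, where TGFB1 is highest, the value was -0.40 ± 0.26 (SE), adjusted p = 0.467 (edgeR). TGFB3 had 53.1 CPM in medial white and 63.9 CPM in lateral white cells, against 131 CPM in medial red and 132 CPM in lateral red cells in fibroblast marker cells. White fell below red there without overlap, at -1.01 ± 0.21 (SE), adjusted p = 0.0355 (edgeR), and likewise in fibrochondrocyte marker cells at -0.92 ± 0.24 (SE), adjusted p = 0.0079 (edgeR). The fibroblast call was lost in DESeq2 and without medial white (-0.88). The fibrochondrocyte call was lost in DESeq2, with no block (-0.91) and without lateral white (-0.79), lateral red (-0.88) or medial red (-0.86). In mural marker cells TGFB3 gave -1.32 ± 0.24 (SE), adjusted p = 4.57e-07 (edgeR), and -1.06 with adjusted p = 0.0185 among cells whose mural markers outnumber their cartilage markers. Among endothelial marker cells with more endothelial than cartilage markers, TGFB1 (0.66) and TGFB3 (-2.08) gained a call. That TGFB3 value rests on 3 UMIs in medial white and 1 in lateral white cells, against 47 in medial red and 18 in lateral red cells. TGFB2 was called in cartilage marker cells alone, lower in white at -1.52 ± 0.32 (SE), adjusted p = 2.20e-04 (edgeR). Its red values come from just 45 UMIs each in 54 medial and 94 lateral cells, and the call was lost in DESeq2 and without the lateral red (-1.88), medial white (-1.32) or medial red library (-0.79). INHBA was not called in any group. Its fold change was 1.19 in fibroblast marker cells (adjusted p = 0.0552, edgeR) and -0.32 in fibrochondrocyte marker cells.

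LTBP2 was called higher in 4 of the 5 groups in which it could be tested, the endothelial one among them with the limits given below. In fibroblast marker cells it had 99.8 CPM in medial white and 107 CPM in lateral white cells, against 40.5 CPM in medial red and 39.5 CPM in lateral red cells. Both white values were far above both red ones, at 1.53 ± 0.20 (SE), adjusted p = 0.00957 (edgeR). That call held under every alternative tried. Fibrochondrocyte marker cells gave 1.52 ± 0.27 (SE), adjusted p = 6.21e-05 (edgeR), no longer called without lateral red (2.21) or medial red (1.17). In mural marker cells LTBP2 had 109 CPM in medial white and 94.6 CPM in lateral white cells, against 9.34 CPM in medial red and 8.04 CPM in lateral red cells, a fold change of 3.97 ± 0.33 (SE), adjusted p = 1.34e-31 (edgeR). Among mural cells with more mural than cartilage markers it was at 97.2 CPM in medial white and 117 CPM in lateral white cells, against 8.25 CPM in medial red and 8.19 CPM in lateral red cells. The value in those cells was 3.71 with adjusted p = 5.12e-07 (edgeR), on 16, 19, 13 and 11 UMIs in the same order. That choice of cells weighs cartilage markers only, while LTBP2 was highest in fibrochondrocyte marker cells. Over the whole mural group, fibrochondrocyte markers summed to 22020 CPM in medial white and 12981 CPM in lateral white cells. In medial red and lateral red cells they summed to 760 and 602 CPM, and their part was not tested. In endothelial marker cells the fold change was 2.06 ± 0.56 (SE), adjusted p = 0.0218 (edgeR), on 10, 9, 12 and 4 UMIs in medial white, lateral white, medial red and lateral red cells. That call was lost in DESeq2 and on leaving out any 1 library, at 1.65 to 2.73. Among endothelial cells with more endothelial than cartilage markers LTBP2 was at 9.09 CPM in medial white and 5.79 CPM in lateral white cells, against 7.11 CPM in medial red and 2.74 CPM in lateral red cells. The zones overlapped there, on 4, 1, 12 and 3 UMIs, too few for the filter, so no call was made. LTBP1 was called in mural marker cells alone (0.89 ± 0.22 (SE), adjusted p = 3.22e-04, edgeR) and lost the call at 0.23 in cells with more mural markers.

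TGFBR1 was called higher in white cells of every group except the myeloid one. White fibrochondrocyte and fibroblast marker cells also held more cartilage markers than red ones, and the part of this was not tested. In fibrochondrocyte marker cells TGFBR1 had 145 CPM in medial white and 105 CPM in lateral white cells, against 50.8 CPM in medial red and 56.1 CPM in lateral red cells. The zones did not overlap, at 1.32 ± 0.26 (SE), adjusted p = 2.47e-04 (edgeR). Fibroblast marker cells gave 1.10 ± 0.24 (SE), adjusted p = 0.0418, and cartilage marker cells 1.72 ± 0.41 (SE), adjusted p = 0.00164 (both edgeR). The fibrochondrocyte call was lost without lateral red (1.55) or medial red (1.26), and the fibroblast one in DESeq2 and without medial white (0.77). The cartilage call was lost in DESeq2 and without lateral red (1.95), medial white (1.49) or medial red (1.90). Mural marker cells gave 2.26 and endothelial marker cells 1.59. In both of these the call was lost among cells whose own markers outnumber their cartilage markers, at 1.06 and 0.97. Myeloid marker cells gave -0.36 ± 0.53 (SE), adjusted p = 0.831 (edgeR). The endothelial call was lost as well in DESeq2 and without medial white (1.44). TGFBR2 and TGFBR3 were called in mural marker cells alone, at 0.63 and 1.88. Among cells with more mural markers TGFBR2 was at 0.08 and TGFBR3 at -0.21, neither called.

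TGFBI in fibroblast marker cells had 303 CPM in medial white and 179 CPM in lateral white cells, against 664 CPM in medial red and 579 CPM in lateral red cells. Red values were the higher ones in both menisci, with a fold change of -1.23 ± 0.23 (SE), adjusted p = 0.0277 (edgeR), called under every alternative tried. White fibroblast marker cells held fewer fibroblast and more fibrochondrocyte markers than red ones, and the part of this was not tested. In mural marker cells TGFBI had 450.2 CPM in medial white and 172 CPM in lateral white cells, against 113 CPM in medial red and 50.4 CPM in lateral red cells, at 2.34 ± 0.23 (SE), adjusted p = 4.84e-22 (edgeR). In cells with more mural than cartilage markers the sign turned, to 60.7 CPM in medial white and 37.0 CPM in lateral white cells, against 95.8 CPM in medial red and 46.2 CPM in lateral red cells. The fold change there was -0.51, with adjusted p = 0.557 (edgeR). The part of cartilage RNA in the other white mural values was not tested further.

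**Figure D5:**
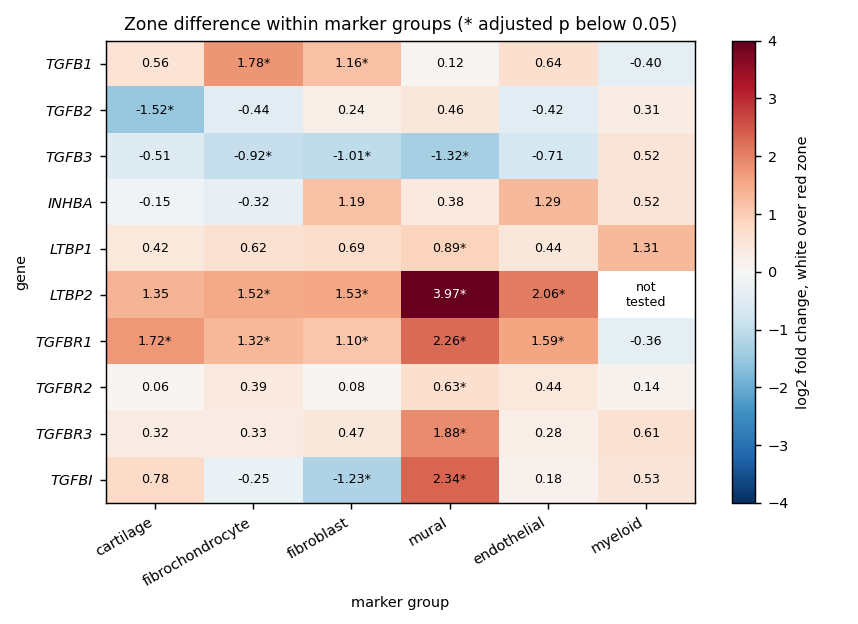
Log2 fold change of each member, white over red zone (colour and number), in the 6 marker groups (columns); an asterisk marks an edgeR adjusted p below 0.05. LTBP2 and TGFBR1 are positive with calls in 4 and 5 groups, TGFB3 negative with calls in 3, and the mural column shows all cells of the group, for which TGFBI is 2.34.

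Whether the zone difference itself varies between marker groups was tested with the group by zone terms of 1 model. It did for 7 of the 10 members, beside 21.7% of 9733 genes. The adjusted p (edgeR) was 1.60e-06 for TGFBI, 2.46e-05 for TGFB1, 1.03e-04 for TGFBR1, 5.42e-04 for LTBP2, 0.0023 for TGFB2, 0.0066 for TGFBR3 and 0.0197 for INHBA. It was 0.37 for TGFB3, 0.478 for TGFBR2 and 0.896 for LTBP1, which were not called. Among cells whose own markers outnumber their cartilage markers, TGFBR3 lost its call (0.295) and the other 6 remained called. For TGFBI the fold change ran from -1.23 in fibroblast to 2.34 in all mural marker cells.

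Between menisci within groups, a comparison added after seeing the data, 3 of 59 tests of members were called. In fibrochondrocyte marker cells INHBA was at 83.1 CPM in medial white and 238 CPM in medial red cells, against 301 CPM in lateral white and 215 CPM in lateral red cells. The medial white library was the low one, and the log2 fold change, medial over lateral, was -1.07 ± 0.30 (SE), adjusted p = 0.0388 (edgeR). TGFBI in the same cells gave 0.92 ± 0.26 (SE), adjusted p = 0.0487, and in mural marker cells 1.27 ± 0.23 (SE), adjusted p = 3.22e-05 (both edgeR). Among mural cells with more mural than cartilage markers TGFBI gave 1.06 with adjusted p = 0.525 (edgeR), no longer called. Endothelial cells chosen in the same way gained a TGFBI call, at 1.79 with adjusted p = 6.94e-05 (edgeR), on 24 UMIs in medial white and 135 in medial red, against 2 in lateral white and 28 in lateral red cells. The 3 calls over whole groups were lost in DESeq2, without the block and on leaving out any library. The share of all genes called was 0.612% in cartilage, 2.26% in fibrochondrocyte, 0.011% in fibroblast, 0.403% in mural, 0.203% in endothelial and 2.04% in myeloid marker cells.

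In matrix cells, some members also moved with the share of cartilage marker UMIs a cell held. TGFBR1 was at 229.6 CPM in medial white matrix cells with 5% or more of such UMIs, against 107 CPM in those with under 0.2%, and at 216 against 73.4 CPM in lateral white cells. For TGFB1 the same classes had 139 against 81.3 CPM in medial white and 77.2 against 47.1 CPM in lateral white cells. TGFB2 went the other way, with 63.1 CPM in the 5% class against 291 CPM in the class under 0.2% of medial white cells, and 120.4 against 265 CPM in lateral white cells. In red matrix cells TGFB2 stood the other way round, with 438 CPM in the class of 0.2 to 1% against 256 CPM under 0.2% in medial red cells, and 311 against 223 CPM in lateral red cells. In white cells the same classes had 206 against 291 CPM in the medial and 198 against 265 CPM in the lateral library. LTBP2 had 17.2 CPM in the 5% class against 143 CPM in the class under 0.2% of medial white cells, and 49.4 against 127 CPM in lateral white cells. The 2 genes called most strongly between zones, LTBP2 and TGFBR1, thus stood highest in opposite classes of white matrix cells. These values describe the classes and carry no test.

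Other genes of the pathway, from lists taken with the members, were split over all cells. Of 72 listed genes 71 are in the files and 65 were tested, of which 17 were higher in white and 23 lower, with a median log2 fold change of -0.29. Over all genes 18.3% were called higher and 22.5% lower, the background for each list here. Of 14 tested genes of latency and activation 7 were higher and 4 lower. ITGB8, a chain of the integrin αvβ8 that activates latent TGF-β, had 44.8 CPM in medial white and 36.2 CPM in lateral white cells, against 10.9 CPM in medial red and 12.9 CPM in lateral red cells. White was clearly the higher zone (2.26), as for THBS1, a matrix glycoprotein that can activate the latent complex (1.89). LRRC32, or GARP, which holds latent TGF-β on cell surfaces, had 3.56 CPM in medial white and 3.57 CPM in lateral white cells, against 53.3 CPM in medial red and 45.4 CPM in lateral red cells, a change of -3.30. The membrane protease MMP14 was lower as well (-1.23). Of 10 other receptors of the family 2 were higher and 5 lower: the type I receptor ACVR1 (1.81) and the decoy receptor BAMBI (1.51) rose, and the endothelial co-receptor ENG fell (-0.70). Of 4 tested activin genes and antagonists 3 were lower, among them FSTL1, which encodes a follistatin-like glycoprotein (-1.07).

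Of 15 SMADs and their regulators 1 was higher and 4 lower. The one that rose was PMEPA1, a TGF-β target that restrains SMAD signalling (1.38), and those that fell were the repressor TGIF2 (-1.17), the inhibitory SMAD7 (-1.10), SMAD1 (-0.76), which carries bone morphogenetic protein signals, and the TGF-β effector SMAD3 (-0.72), the last named after its value was seen. Of 4 proteoglycans that bind TGF-β 3 were higher, namely DCN (2.80), FMOD (1.96) and BGN (1.34). Within cartilage and within fibrochondrocyte marker cells 0 of these 4 were called by edgeR, at median log2 fold changes of -0.20 and -0.08. Called higher were 1 of 4 in fibroblast, 4 of 4 in mural, 3 of 4 in endothelial and 3 of 4 in myeloid marker cells. White cells of the last 3 groups carried matrix markers, and the part of this was not tested. Of 18 tested response genes 4 were higher and 7 lower. Within cartilage marker cells 0 of 17 were higher and 4 lower, and within fibrochondrocyte marker cells 1 of 17 was higher and 9 lower, beside 3.53% and 9.13% of all genes called there. Fibroblast marker cells had 2 of 18 higher and 5 lower (background 9.16%) and mural ones 7 of 16 higher and 6 lower (35.4%). Endothelial marker cells had 6 of 17 higher and 4 lower (10.9%), and myeloid ones 3 of 12 higher and 1 lower (7.57%). Over all cells, the collagen gene COL3A1 (2.61) and LOX, which cross-links collagen (2.50), rose. The matrix gene POSTN (-4.06) and TAGLN of the actin cytoskeleton (-3.03) fell, and TAGLN is also high in smooth muscle. These are log2 fold changes, white over red zone, called by edgeR with adjusted p from 7.59e-06 to 0.0253. Between menisci 0 of the 65 were called by edgeR over all cells, beside 0.112% of all genes. In myeloid marker cells the medial meniscus was higher for 15 of 40 tested genes and lower for 0, beside 2.04% of all genes, among them 8 of 12 response genes and 3 of 4 proteoglycan genes. Summed fibrochondrocyte markers in those cells stood at 6205 CPM in medial white and 689 CPM in medial red, against 2378 CPM in lateral white and 425 CPM in lateral red cells, and their part was not tested.

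Genes whose level followed a member most closely over the 24 sums of 6 groups and 4 libraries are named as a description; the sums share libraries and depth. For TGFB3 they were TRIP6, PFN2 and SLIT3 (Pearson r of log2(CPM + 10), 0.930 to 0.954), for TGFB2 MXRA8, CREB3L1 and HOXA10 (0.925 to 0.947) and for TGFB1 YWHAH, AHCY and U2SURP (0.873 to 0.917). For INHBA they were NDN, OXCT1 and COL6A2 (0.852 to 0.862). For LTBP2 they were SFRP1, OMD and LOX (0.899 to 0.911), of which OMD served as a fibrochondrocyte marker, and for LTBP1 CREB3L2, CD109 and RORA (0.921 to 0.925). For TGFBR1 they were ZNF385B, SLC7A1 and MAPK4 (0.892 to 0.913) and for TGFBR3 LPAR1, GOLIM4 and KAT2B (0.903 to 0.907). For TGFBI they were ATOX1, ZFYVE21 and SEC61B (0.836 to 0.867).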

How the data were processed

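Pig menisci were freed of synovium, cut by zone and digested with pronase and collagenase P, and the cells were run on the 10x 3′ v3.1 assay, per the labels' protocols. The deposited files hold filtered UMI counts per gene and cell, and Cell Ranger 6.1.2 with Sscrofa 11.1 is named in the submitters' processing notes. Of 21280 features, 14811 carried their own symbol and 694 took one from the annotation table. From 27782 barcodes, cells with at least 500 UMIs, 200 genes and at most 20% of UMIs from 13 mitochondrial genes were kept unless Scrublet called them doublets, which left 27565. Scrublet (scanpy 1.11.5) called 0, 0, 0 and 128 doublets in medial white, lateral white, medial red and lateral red cells, fewer than expected in 3 libraries. Removal of these calls thus touched the lateral red library alone. Removing the highest scores of every library instead was an alternative. Library pairs shared 10 to 20 barcodes.

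A cell with at least 3 UMIs from at least 2 genes of a vascular, immune, Schwann or mast list joined that group, whatever its matrix marker counts. Cells that met this for 2 or more such lists were set aside as mixed. Each other cell with at least 3 UMIs of a matrix list joined the cartilage, fibrochondrocyte or fibroblast group. The group was the one with the highest ratio of its list UMIs to the mean list UMIs per cell. The rest were ungrouped. Counts were summed per library and group (at least 20 cells) and tested with edgeR 4.0.16 (R 4.3.3) quasi-likelihood fits with TMM scaling, the meniscus or library as a block, filtering by expression and Benjamini-Hochberg adjustment over all genes tested. All-cell fits leave 1 residual degree of freedom among samples. The replicate number is the meniscus in the labels' titles. The medial minus lateral deviations of the 2 zones correlated at r = 0.152 across 4932 genes. DESeq2 1.42.0, no TMM, no filter, no block, other marker limits, thinned cells and each library left out were alternatives. The all-cell zone fit and the fit of mural marker cells over the other groups were run on simulated counts. These had the same dispersion for every gene and no meniscus or library effect, and the fits within groups were not covered. Intervals are exact at 95% and cover counting error only.

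The members and all lists were chosen with earlier results of these data known. Pathway genes were named as the up to 4 genes of each list with an adjusted p below 0.05 and the greatest change, at a mean of at least 20 CPM, and like genes as the 3 of highest r; those of TGFBR2 are not reported here.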

Additional observations from a re-analysis of the deposited data

Results flagged for a closer look

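The zone difference of 7 members differed between the 6 marker groups by the test of the group by zone terms (edgeR). The adjusted p was 1.6e-06 for TGFBI, 2.46e-05 for TGFB1, 0.000103 for TGFBR1, 0.000542 for LTBP2, 0.0023 for TGFB2, 0.0066 for TGFBR3 and 0.0197 for INHBA, beside 21.7% of all genes. White mural marker cells carry cartilage markers, and with cells of more own than cartilage markers TGFBR3 was no longer called.

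TGFBI over all cells was higher in white than in red cells of the medial meniscus, by 0.769 on the TMM-scaled log2 scale, and lower in the lateral meniscus, at -0.119. The difference was not tested.

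Members were also seen in cells outside the 6 groups. TGFBR2 had 7 UMIs in the 5 Schwann marker cells of the medial red library and 14 UMIs in the 6 of the lateral red library, while the white libraries held 0 such cells. TGFBI had 7 UMIs in the 3 mast marker cells of the medial red library, the only library with such cells.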

How the results depend on the processing

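Of the values recomputed, 679 kept direction and side of the threshold, 118 lost a call, 5 gained one and 7 turned. Without TMM, TGFB1 (-0.047), TGFBR2 (-0.015) and TGFBI (-0.166) turned in the zone comparison, by construction of the scaling. TGFBI between zones ran from -0.325 (without medial white) to 0.959 (without lateral white) on leaving out 1 library. Between menisci in mural marker cells it ran from -0.341 to 2.85 on leaving out the same 2 libraries in turn. With own markers above cartilage markers, mural TGFBR3 (-0.211) and TGFBI (-0.506) turned.

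The 7 members called between zones were 4 to 8 on leaving out 1 library (4 without medial red), 5 without TMM and 6 without the replicate block, where INHBA was lost. Between menisci 0 became 2 with no filter and 0 without any 1 library. Of the 20 calls within groups, DESeq2 kept a count of 10, leaving out a library gave 12 to 22 (13 without lateral red, 12 without medial red), no replicate block 19, and own markers above cartilage markers 15, of which 4 in mural, endothelial and myeloid marker cells. The 38 calls between groups were 35 to 38 without 1 library and 35 without the block. The 3 calls between menisci within groups were 5 with no filter, 0 with DESeq2, 0 with no replicate block and 0 to 0 without 1 library. The median share of cells with a UMI, 18.4%, was 6.05% with cells thinned to 500 UMIs. Over all genes the 5078 zone calls were 3275 in DESeq2, 2847 without lateral red and 2441 without medial red. The 14 meniscus calls were 265 with no filter, 32 in DESeq2, 8 with all barcodes, 3 after removing the highest doublet scores and 0 without the block. Except for the scaling, the cause was not tested. Red cartilage marker cells (54 and 94 in the medial and lateral library) and white myeloid marker cells (57 and 77) set the depth limit.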
